A study of Mus musculus with 12 samples.

Results

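Genes of mitosis were followed in regulatory T cells sorted from lymph nodes of 2 strains of mice, NOD and NOD.Drak2-/-. The list of mitotic genes had 42 symbols, chosen for their roles but with earlier results of these data known. Of these symbols 41 had a row on the array, out of 19505 genes measured. Ccnb1, the gene of cyclin B1, could not be matched to a row by its symbol and is not analysed here. Every member had 1 row, so no choice between rows was needed. NOD is an inbred strain that develops autoimmune diabetes spontaneously. The other strain is labelled as lacking Drak2, the kinase encoded by Stk17b, on the NOD background, and the labels do not give the allele. Per the labels, the sorted cells were CD4+, CD8-, CD25+ and low for CD45RB, and the donors were females aged 4 to 8 weeks. Each genotype has 6 arrays, each described as 1 mouse. The NOD mice carry the replicate numbers 1 to 6, and the NOD.Drak2-/- mice 1 to 5 and then 7. Values are log2 signals deposited by the authors, so a step of 1 is a doubling, and differences are NOD.Drak2-/- minus NOD. Each gene was tested by limma on the 12 arrays, with p-values adjusted by Benjamini-Hochberg over all 19505 genes and a threshold of 0.05.

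A dividing cell condenses its chromosomes, builds a bipolar spindle, checks that every kinetochore is attached, separates the sister chromatids and then pinches in the middle. Cyclin-dependent kinase 1 with its cyclins starts this sequence, Polo-like and Aurora kinases carry it on, and the anaphase-promoting complex ends it by marking cyclins and securin for destruction. Most of these genes are silent in resting lymphocytes and are switched on together late in the cycle, when the DREAM repressor complex gives way to an activating complex of B-Myb, MuvB and FoxM1 at their promoters. In mice a part of the regulatory T cells is in cycle at any time, mainly the activated ones. An array of a bulk sample cannot tell fewer dividing cells from less RNA per dividing cell.

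The promoters of these genes are shown because most of the matched genes share a control region. Their values also varied together across mice, and a link of this to the promoters was not tested. Promoter sequences, 250 bases before to 50 bases after each annotated start, were taken from RefSeq (GRCm38.p6), and 35 of the 42 symbols matched, with 37 promoters. The cell cycle genes homology region, which the MuvB core of both complexes contacts, was searched as TTTGAA or TTCGAA. The box bound by the factor NF-Y was searched as CCAAT on both strands, as were the former 2, and matches were counted also where they overlap. Of the 37 mitotic promoters 30 (81.1%) held TTTGAA or TTCGAA, beside 19.2% of the 32851 promoters in the table. CCAAT was held by 29 (78.4%), beside 37.4% of all promoters. Both kinds together were held by 27 (73.0%), beside 7.52% of all. A homology region starting within 50 bases of the transcription start was held by 28 (75.7%), beside 5.31% of all. The promoters of Birc5, Mad2l1, Melk, Ncaph and Nusap1 held neither kind in this window, and those of Ccnb1 and Cenpe held only the CCAAT box. A match is a description of letters and does not show binding.

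The promoters of 6 genes follow, as runs of 250 bases that end at the base before the start, 5′ to 3′ on the strand of the gene. They are the members with both kinds of motif within those bases and the largest genotype differences. Capitals mark the motifs on either strand.
Ect2, chr3:27153855-27154104, reverse strand: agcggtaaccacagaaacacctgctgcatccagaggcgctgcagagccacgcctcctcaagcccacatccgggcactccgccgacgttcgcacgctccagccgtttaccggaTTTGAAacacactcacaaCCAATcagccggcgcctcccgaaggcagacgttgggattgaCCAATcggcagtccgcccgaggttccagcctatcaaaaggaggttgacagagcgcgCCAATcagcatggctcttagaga
Bub1b, chr2:118597961-118598210, forward strand: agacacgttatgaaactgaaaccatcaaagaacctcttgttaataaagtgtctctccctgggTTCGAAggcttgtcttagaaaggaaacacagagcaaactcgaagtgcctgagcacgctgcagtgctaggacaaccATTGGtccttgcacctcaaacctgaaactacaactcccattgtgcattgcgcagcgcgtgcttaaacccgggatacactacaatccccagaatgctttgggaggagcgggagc
Prc1, chr7:80294226-80294475, forward strand: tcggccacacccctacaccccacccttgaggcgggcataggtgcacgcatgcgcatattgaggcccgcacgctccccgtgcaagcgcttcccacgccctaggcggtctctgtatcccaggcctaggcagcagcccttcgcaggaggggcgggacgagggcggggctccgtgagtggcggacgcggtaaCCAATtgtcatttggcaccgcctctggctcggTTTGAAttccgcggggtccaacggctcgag
Kif11, chr19:37376132-37376381, forward strand: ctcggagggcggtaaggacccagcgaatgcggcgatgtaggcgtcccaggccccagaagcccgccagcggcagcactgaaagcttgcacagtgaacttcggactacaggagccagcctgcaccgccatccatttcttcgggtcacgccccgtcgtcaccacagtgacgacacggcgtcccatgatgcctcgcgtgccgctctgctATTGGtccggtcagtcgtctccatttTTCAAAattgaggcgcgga
Cdk1, chr10:69352913-69353162, reverse strand: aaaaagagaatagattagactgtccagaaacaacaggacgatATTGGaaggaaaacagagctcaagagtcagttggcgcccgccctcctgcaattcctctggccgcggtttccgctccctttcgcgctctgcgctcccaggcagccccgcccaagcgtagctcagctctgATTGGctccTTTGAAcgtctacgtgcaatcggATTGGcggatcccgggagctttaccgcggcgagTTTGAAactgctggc
Top2a, chr11:99024190-99024439, reverse strand: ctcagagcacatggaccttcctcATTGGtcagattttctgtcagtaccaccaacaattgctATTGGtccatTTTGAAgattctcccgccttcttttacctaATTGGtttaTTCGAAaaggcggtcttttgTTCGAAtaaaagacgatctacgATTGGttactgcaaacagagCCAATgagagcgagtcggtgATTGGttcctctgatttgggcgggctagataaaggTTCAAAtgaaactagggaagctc

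In Prc1 the TTTGAA begins 30 bases before the start and the CCAAT box 62 bases before it. Kif11 carries the same pair on the opposite strand, at 19 and 45 bases. Cdk1 has 2 copies of TTTGAA, at 71 and 15 bases, and CCAAT boxes on the opposite strand at 208, 80 and 48 bases. Top2a has 6 CCAAT boxes. In Bub1b the copy in capitals, TTCGAA, lies 188 bases before the start, and in Ect2 TTTGAA lies 138 bases before it. Both genes also hold a TTTGAA past the printed bases, 40 bases after the start in Bub1b and 15 in Ect2. The 28 measured genes with a homology region had a median difference between genotypes of -0.18, and the 6 measured genes whose promoter had none a median of -0.37. These medians are descriptions and were not tested against each other.

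**Figure D1:**
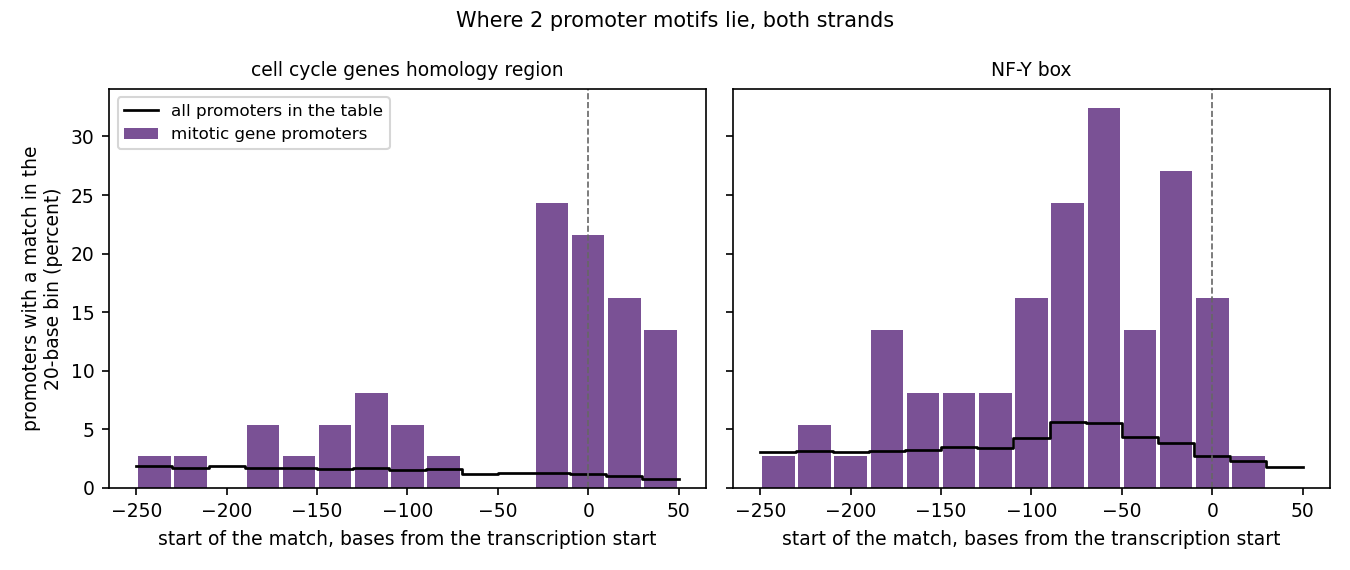
Percent of promoters with a match starting in each 20-base bin, by distance from the annotated transcription start, for the cell cycle genes homology region (left) and the NF-Y box (right), with bars for 37 promoters of mitotic genes and a line for all 32851 promoters. Matches to the homology region gather around the start, with 9 of the 37 promoters in the bin that opens 30 bases before it.

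The labelled cell type was seen in the T cell genes, within limits. All 8 measured T cell markers and 9 of 10 measured regulatory T cell markers had means above 5.87, the mean of the brightest of 23 background rows. The T cell marker with the largest difference between genotypes was Thy1, at 0.99 (adjusted p = 0.339 in limma). No row was matched to Foxp3. Il2ra, the gene of CD25, was below that level on every array. Of 6 measured CD8 T and NK cell markers 2 had means above it, Cd8b1 and Eomes. Cd8b1 averaged 7.27 in NOD and 7.45 in NOD.Drak2-/- and was above it on 12 arrays, while Cd8a was below it on every array. Of 8 measured stromal and endothelial markers 3 had means above it, among them Pecam1 (9.12 in NOD, 9.23 in NOD.Drak2-/-), and of 5 germinal centre and plasma cell markers 2. Stk17b, the gene of Drak2, ran from 10.21 to 10.80 in NOD and from 9.97 to 10.36 in NOD.Drak2-/- (lowest to highest), and the groups overlap. The difference was -0.27 (adjusted p = 0.517 in limma), and since the labels do not say which part of the gene was removed, this row does not check them. Array medians over all genes lay between 5.18 and 5.34. Between the genotypes 4 of 19505 genes passed (0.0205%), and no mitotic gene was among them. Fits that left out 1 array passed 1 or 2. Among the mitotic genes 26 had a mean above the brightest background row and 15 a mean below it. On all 12 arrays 10 members were above that row, 25 on some arrays, and 6 on none. Genes with a mean below that row are said below to be in the background range.

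Mitotic genes varied widely between mice of the same genotype and varied together. Their mean per array was 6.69, 5.62, 6.11, 6.40, 6.45 and 6.70 in NOD replicates 1 to 6. In NOD.Drak2-/- it was 5.49, 5.97, 6.16, 6.43, 6.27 and 6.25 in replicates 1 to 5 and 7. The lowest array of each genotype, NOD replicate 2 and NOD.Drak2-/- replicate 1, lay below all others, and NOD replicates 1 and 6 lay above all others. Between the lowest and the highest array the mean differed by 1.21, which is larger than the difference between genotype means of -0.23. Of the 41 genes 31 had their lowest value in one of those 2 low arrays and 28 their highest in NOD replicate 1 or 6. NOD replicate 2 was the lowest NOD array in 7 of 8 roles, and NOD.Drak2-/- replicate 1 the lowest of its genotype in 8 of 8. The genes above the brightest background row numbered 14 in each of the 2 low arrays and 20 to 32 in the other 10.

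**Figure D2:**
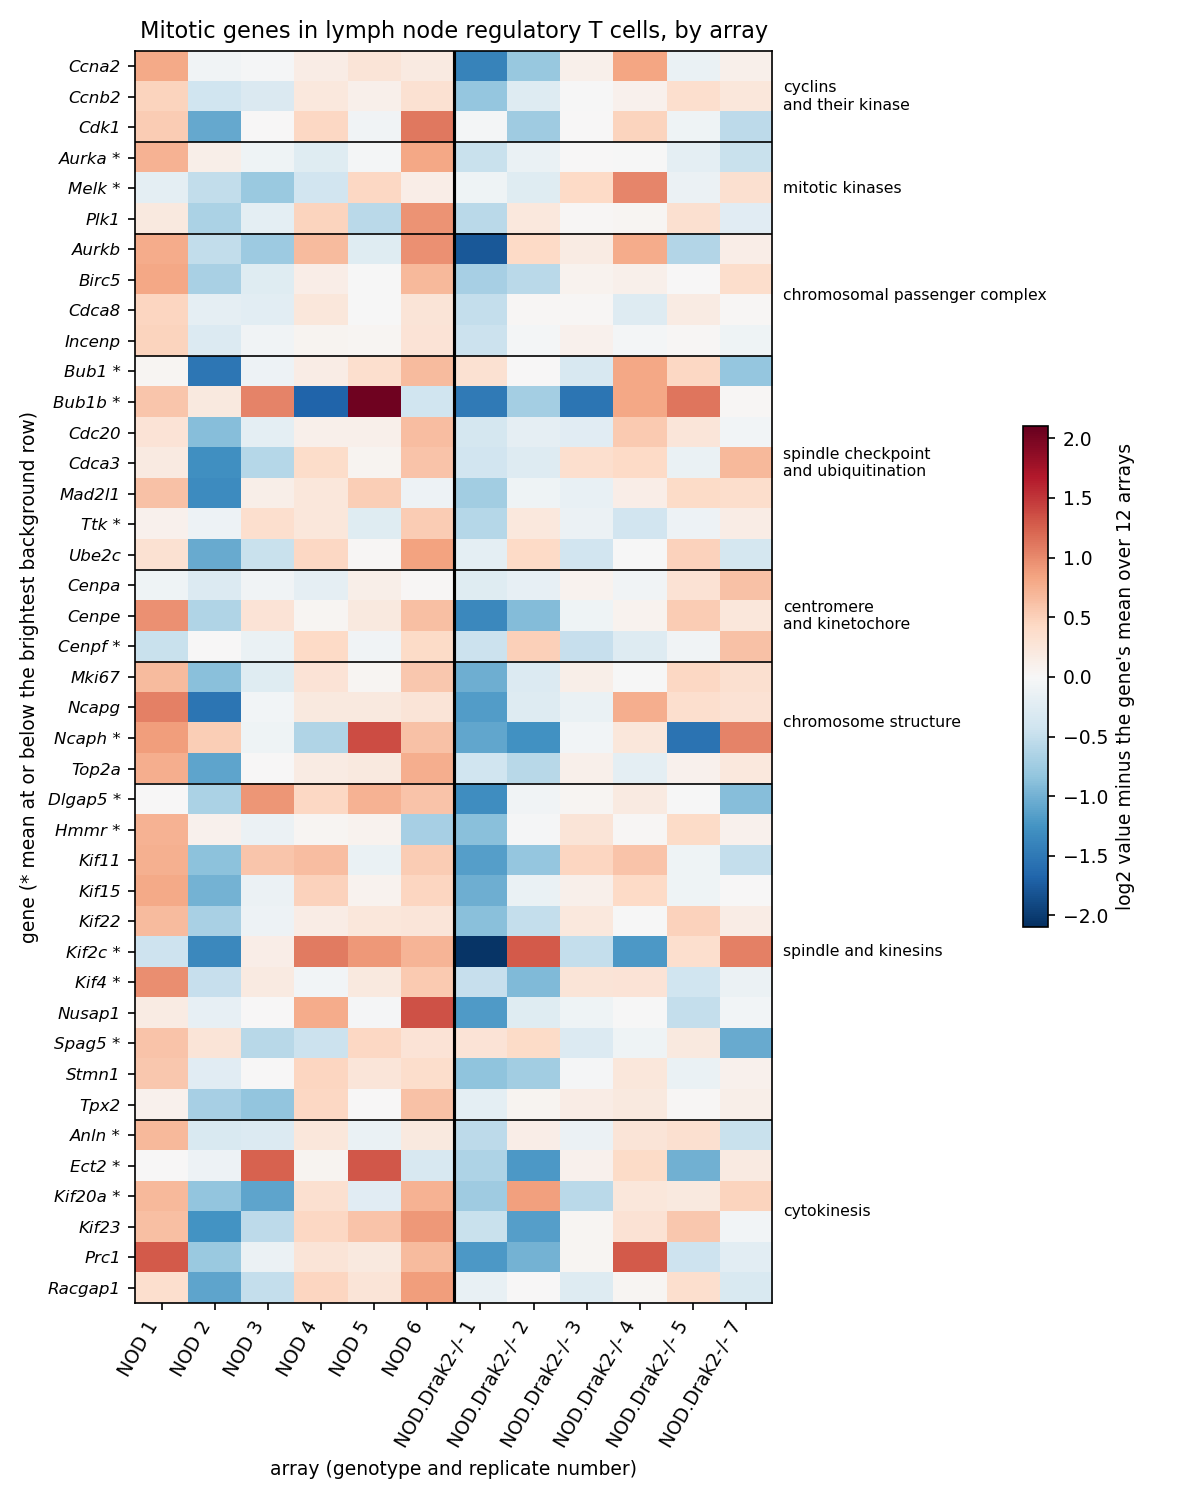
Log2 value of each of 41 mitotic genes (rows, by role) in each of 12 arrays (columns), minus the mean of the gene over the 12 arrays, with red for higher and blue for lower. Most rows are blue in NOD replicate 2 and NOD.Drak2-/- replicate 1 and red in NOD replicates 1 and 6, whose means over the genes were 5.62, 5.49, 6.69 and 6.70.

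Their spread was larger than that of most genes. Within genotypes the median SD of a mitotic gene was 0.54, beside 0.25 for all genes and 0.26 for the 8128 genes above background. Genotype accounted for a median of 4.92% of the sum of squares of a mitotic gene across the 12 arrays, and of 7.20% over all genes. Each gene was set against the mean of the other 40 over the 12 arrays, with a median Pearson r of 0.72 and a median Spearman rho of 0.67. These correlations are descriptions over arrays that share a normalization, and no p is given. With genotype means subtracted the median r was 0.71, and without the 2 low arrays it was 0.52 over 10 arrays. It was 0.82 within NOD and 0.68 within NOD.Drak2-/-, over 6 arrays each. Among genes above background the median r was 0.80 and among those below it 0.44. For the 28 measured genes with a homology region in the promoter it was 0.71, and for the 6 without one 0.74. Kif15, a kinesin of the spindle, followed the others most closely (0.95), and Mki67 (0.92), Ccnb2 (0.91), Birc5 (0.91) and Ncapg (0.91) were close behind. Spag5, a spindle protein mostly in the background range, had the lowest r (-0.03), followed by Cenpf (0.11).

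Some other measures of the 2 low arrays were alike and some were not. The mean of the heat shock and dissociation genes was 8.29 in NOD.Drak2-/- replicate 1 and 8.06 in NOD replicate 2, within a range of 7.80 to 8.29 over all arrays. Positive minus negative control rows gave 3.89 in both arrays, within a range of 3.44 to 3.98. Hybridization controls averaged 10.4 in NOD.Drak2-/- replicate 1 and 9.30 in NOD replicate 2. The regulatory T cell markers averaged 9.56 and 9.57 in these arrays, within a range of 9.48 to 9.70. Of 11 measured myeloid and dendritic cell markers 0 had a mean above the brightest background row. Their mean was nonetheless the highest of its genotype in both low arrays, 4.66 in NOD.Drak2-/- replicate 1 and 4.48 in NOD replicate 2. Their summed linear signal ran from 222 to 281 in NOD and from 221 to 361 in NOD.Drak2-/-. The brightest of them, Lyz2, was above that row on 3 arrays, and the others were below it on every array. Lyz2 was at 6.67 in NOD.Drak2-/- replicate 1 and 5.47 in NOD replicate 2. Of 10 measured B cell markers 1, Cd79b, had a mean above it. The B cell sums ran from 334 to 411 in NOD and from 309 to 517 in NOD.Drak2-/-. Cd79b was above that row on 9 arrays, Ebf1 on 4, Cd79a on 2 and Fcer2a on 1, and the others, such as Ms4a1 and Pax5, on 0. The part of these measures in the mitotic values was not tested.

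Between the genotypes 0 of 41 mitotic genes passed in limma, beside 0.0205% of all genes. At an unadjusted p under 0.05 there were 6 (14.6%), beside 9.43% of all genes, and all 6 had a negative difference, beside 5.69% of all genes. In the positive direction there were 0, beside 3.74% of all genes. Of the 6, Dlgap5, Aurka, Ect2 and Ncaph had means in the background range. When only genes above background were tested, 2 of 26 members had an unadjusted p under 0.05, beside 8.97% of the 8128 genes. For 0 of 41 genes did the 6 values of one genotype lie wholly apart from the 6 of the other, beside 0.513% of all genes. The difference was below 0 for 35 of 41 genes (85.4%), beside 54.1% of all genes. The median difference was -0.18, beside -0.02 over all genes. With each array centred on its median the counts below 0 were 29 of 41 (70.7%) and 39.96% of all genes. In that fit only 3 of 41 mitotic genes had an unadjusted p under 0.05 in limma, beside 10.02% of all genes. Of these 3, 2 had a negative difference and 1 a positive one, so the 6 negative genes of the main fit depend on scaling. Because the mitotic genes vary together, these counts are not 41 separate observations. The list was also chosen with earlier results of these data known, so the counts are descriptions. Over the mitotic genes the half-width of the 95% interval of the difference had a median of 0.56, so changes smaller than that were mostly beyond the precision of 6 arrays per genotype.

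**Figure D3:**
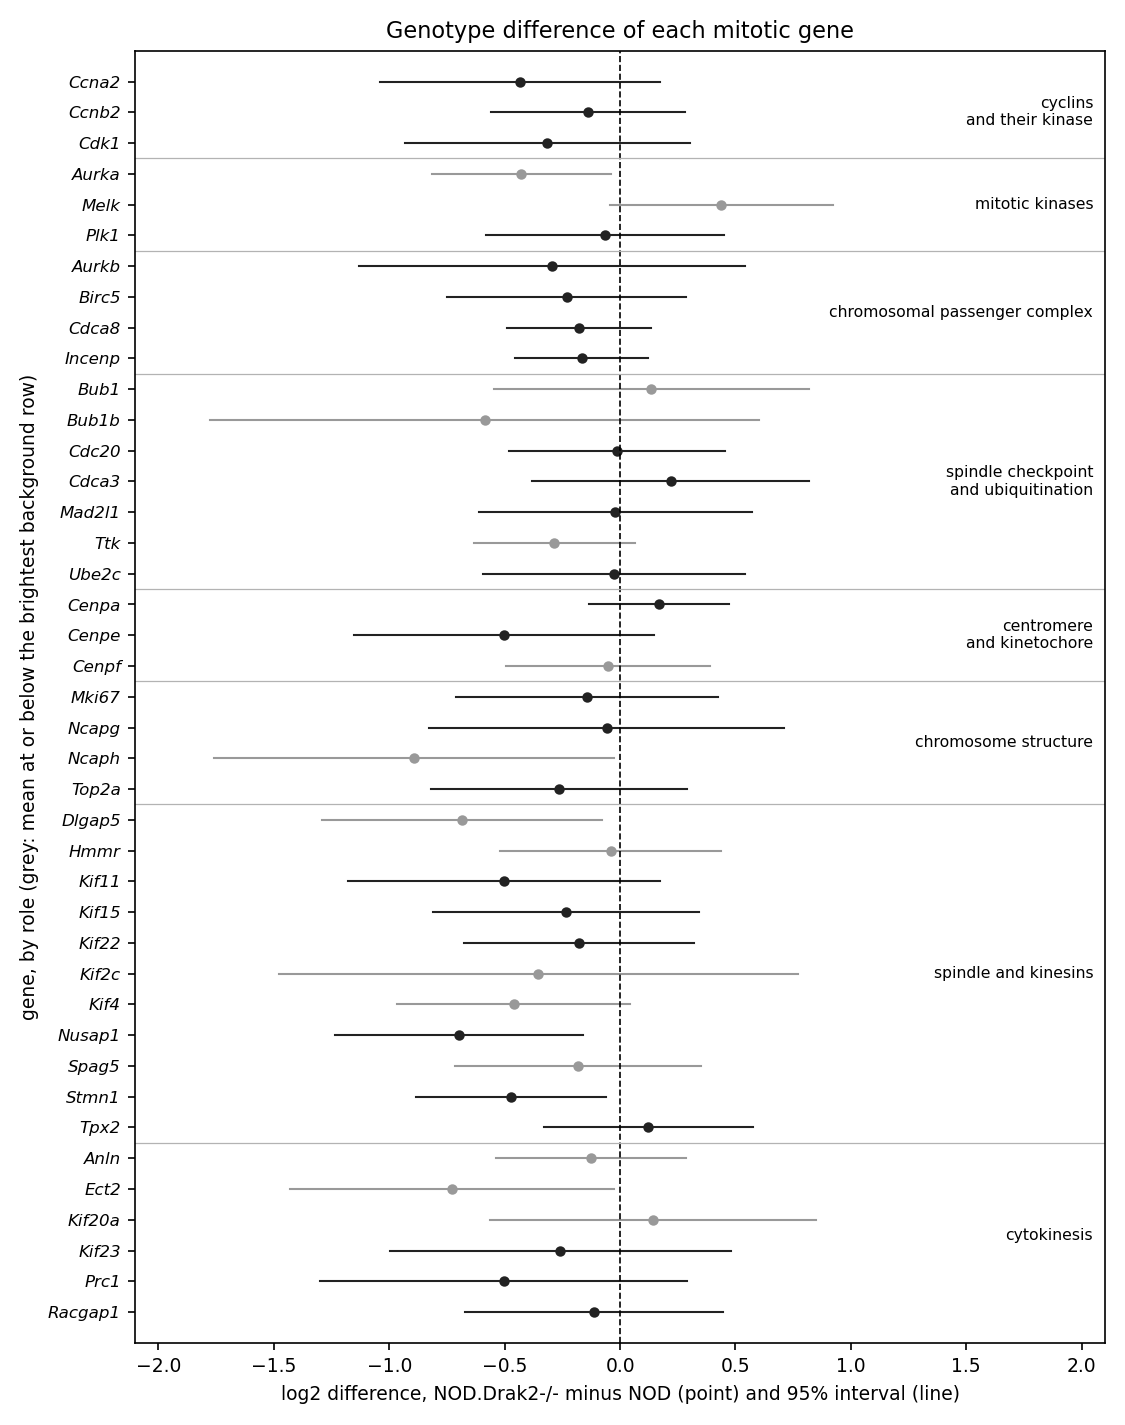
Log2 difference of each mitotic gene, NOD.Drak2-/- minus NOD (points), with its 95% interval from limma (lines), by role, with genes in the background range in grey. The points of 35 of 41 genes lie left of 0, and the intervals of 35 include 0.

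A pair of arrays moved this difference in opposite directions. The mean difference over the genes was -0.23 with all arrays, -0.11 without NOD.Drak2-/- replicate 1, and -0.37 without NOD replicate 2. The median went from -0.18 to -0.09 and -0.35. The genes below 0 numbered 24 (58.5%) and 39 (95.1%) of 41, beside 53.7% and 52.3% of all genes. Genes at an unadjusted p under 0.05 numbered 1 without the former, beside 8.34% of all genes, and 10 without the latter, beside 6.91% of all genes. With both left out, a setting chosen after the data were seen, the mean was -0.25 and 0 passed. In that setting 34 genes (82.9%) were below 0, beside 52.0% of all genes. Leaving out NOD replicate 1 or 6 gave a median of -0.10 or -0.13, and counts at an unadjusted p of 3 and 4, beside 7.38% and 10.2% of all genes. Without NOD replicate 3 or NOD.Drak2-/- replicate 7 the latter count was 4, beside 8.77% and 7.86% of all genes. Without NOD.Drak2-/- replicate 4 it was 10, when the share over all genes was 13.01%. With 1 array left out 24 genes kept their sign, and for 16 of these some array moved the difference by over 1.5 times.

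**Figure D4:**
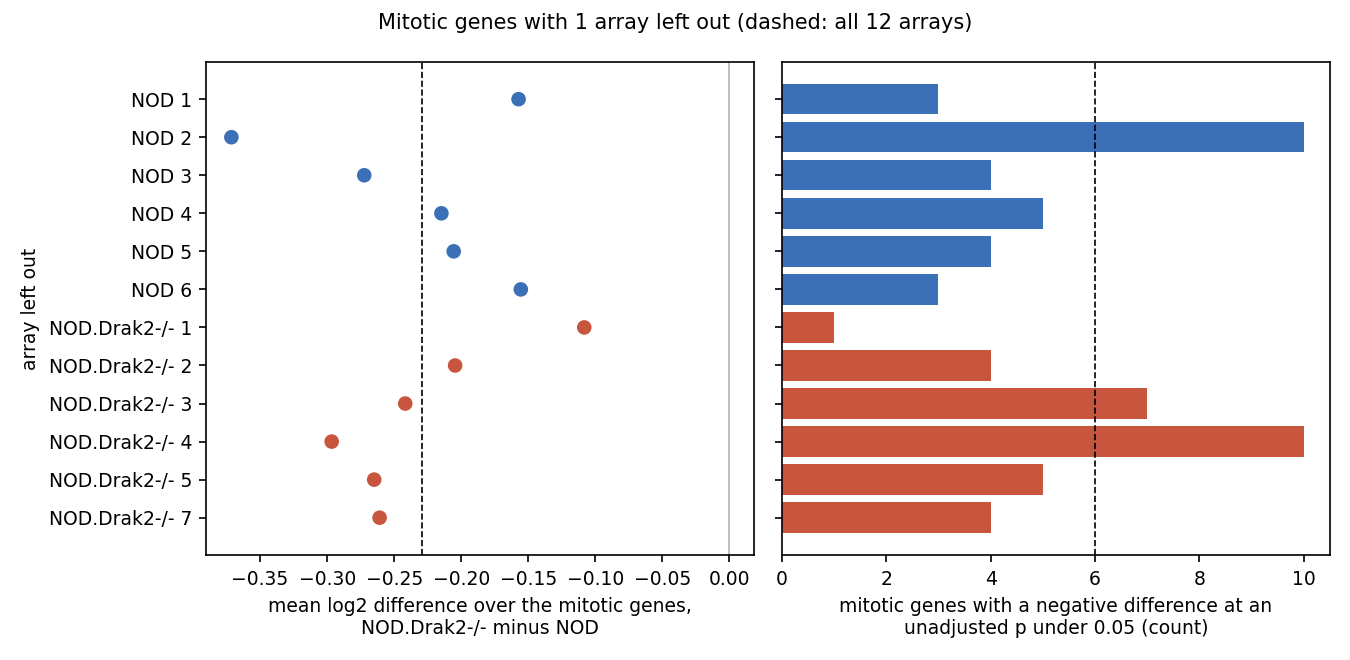
Mean log2 difference over the 41 mitotic genes (left) and number of them with a negative difference at an unadjusted p under 0.05 (right) when 1 array is left out, with NOD arrays in blue, NOD.Drak2-/- arrays in red and dashed lines for all 12 arrays. The mean runs from -0.37 without NOD replicate 2 to -0.11 without NOD.Drak2-/- replicate 1.

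Cyclins and their kinase, which start mitosis, had negative differences in 3 of 3 measured genes, and 0 passed. Ccna2, the cyclin of S phase and mitotic entry, differed by -0.43 (adjusted p = 0.639 in limma), and by -0.20 without NOD.Drak2-/- replicate 1. Ccnb2, a mitotic cyclin, differed by -0.14. For Cdk1, the kinase itself, the lowest, median and highest values were 4.89, 6.19 and 7.08 in NOD and 5.22, 5.90 and 6.44 in NOD.Drak2-/-. The NOD values of Cdk1 span those of NOD.Drak2-/- wholly, and the difference was -0.32 (SE 0.29, adjusted p = 0.736 in limma). It was -0.12 without NOD replicate 6 and -0.56 without NOD replicate 2. Among 3 mitotic kinases Plk1, the Polo-like kinase, differed by -0.07. Aurka, the Aurora kinase of spindle poles, gave 5.07, 5.37 and 6.15 in NOD and 4.86, 5.16 and 5.33 in NOD.Drak2-/- (lowest, median, highest). Its difference was -0.43 (SE 0.18, adjusted p = 0.512 in limma, unadjusted exact permutation p = 0.0671), with 6 of 6 NOD.Drak2-/- arrays below the NOD mean, and 2 of 12 arrays above the brightest background row. Melk, a kinase found in dividing cells, had the largest positive difference of the list, 0.44 (adjusted p = 0.56 in limma), but was below the brightest background row on every array.

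The chromosomal passenger complex places Aurora B at centromeres and later at the spindle midzone. Its 4 genes, Aurkb for the kinase, Birc5 for survivin, Cdca8 for borealin and the scaffold Incenp, differed by -0.30, -0.23, -0.18 and -0.17, and 0 passed. Aurkb was at 5.56 in NOD.Drak2-/- replicate 1, while the other 11 arrays lay between 6.59 and 8.30, and its difference was 0.03 without that array. The complex had a mean of 6.82 ± 0.44 in NOD and 6.60 ± 0.38 in NOD.Drak2-/- (SD, n = 6 each), so the genotypes differed by less than the spread between mice.

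Spindle checkpoint and ubiquitination genes had differences from -0.59 to 0.22 over 7 genes, with a median of -0.02, and 5 of them were negative. Mad2l1, the checkpoint protein that binds Cdc20, gave 6.94, 8.45 and 8.88 in NOD and 7.54, 8.29 and 8.66 in NOD.Drak2-/- (lowest, median, highest). The groups overlap over nearly their whole range, and the difference was -0.02 (95% interval -0.61 to 0.57). Cdc20, which activates the anaphase-promoting complex, differed by -0.01 (95% interval -0.48 to 0.45), and Ube2c, its ubiquitin-conjugating enzyme, by -0.03 (-0.59 to 0.54). Cdca3, which promotes entry into mitosis, differed by 0.22. Of the checkpoint kinases and their partners, Bub1 differed by 0.13, Bub1b by -0.59 and Ttk by -0.28, and these 3 had means in the background range. Bub1b varied most of all the mitotic genes, over 3.73 units, and followed the other genes weakly (r = 0.25).

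The 3 centromere and kinetochore genes gave differences of both signs. Cenpa, the histone H3 variant of centromeres, had 8.06, 8.26 and 8.47 in NOD and 8.10, 8.35 and 8.96 in NOD.Drak2-/- (lowest, median, highest). It had the smallest range over the 12 arrays of the mitotic genes (0.90), was highest in NOD.Drak2-/- replicate 7, and differed by 0.17 (SE 0.14, adjusted p = 0.715 in limma). Cenpe, a kinesin of the kinetochore, differed by -0.50 (adjusted p = 0.611 in limma), from 6.25 ± 0.54 to 5.74 ± 0.73 (SD, n = 6 each). Cenpf, in the background range, differed by -0.05.

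Genes of chromosome structure include the usual proliferation marker, Mki67, whose protein coats mitotic chromosomes. Mki67 was at 9.97, 8.43, 9.05, 9.59, 9.35 and 9.87 in NOD replicates 1 to 6. In NOD.Drak2-/- it was at 8.28, 9.01, 9.43, 9.30, 9.73 and 9.64 in replicates 1 to 5 and 7. Apart from 1 low array in each genotype the 2 groups occupy nearly the same range, and the difference was -0.14 (95% interval -0.71 to 0.43, adjusted p = 0.883 in limma). Top2a, the topoisomerase that untangles sister chromatids, gave 6.17, 7.47 and 8.05 in NOD and 6.70, 7.22 and 7.51 in NOD.Drak2-/- (lowest, median, highest). Its NOD values reached both lower and higher, and the difference was -0.27 (SE 0.26, adjusted p = 0.754 in limma). Of the condensin I subunits, Ncapg differed by -0.06 and Ncaph by -0.89, the largest negative difference of the list. Ncaph had 4.89, 6.08 and 6.88 in NOD and 3.97, 4.94 and 6.56 in NOD.Drak2-/- (lowest, median, highest). The genotypes overlap widely, 5 of 12 values were above the brightest background row, and the test gave SE 0.41, an adjusted p of 0.52 in limma and an unadjusted exact permutation p of 0.104.

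Spindle proteins and kinesins were the largest role, with 10 of 11 genes negative, beside 54.1% of all genes, and a median of -0.35. Of the 11 genes 0 passed, and 3 had an unadjusted p under 0.05, beside 9.43% of all genes. These were Nusap1, Stmn1 and Dlgap5, the last with a mean in the background range. Nusap1, which bundles spindle microtubules, had the smallest p of the list. It was at 6.27, 5.93, 6.10, 6.87, 6.07 and 7.42 in NOD replicates 1 to 6, and at 4.91, 5.84, 6.002, 6.09, 5.60 and 6.04 in NOD.Drak2-/- replicates 1 to 5 and 7. All 6 NOD.Drak2-/- values lay below the NOD mean, and the highest of them lay above 2 NOD values. The fold was 0.616 (log2 difference -0.70, SE 0.25, adjusted p = 0.483 in limma, unadjusted exact permutation p = 0.026). Stmn1, which destabilises microtubules, was at 9.93, 9.12, 9.37, 9.80, 9.61 and 9.73 in NOD and at 8.51, 8.63, 9.33, 9.59, 9.22 and 9.44 in NOD.Drak2-/-, in the same order. NOD.Drak2-/- replicates 1 and 2 lay below every NOD array, and the other 4 within the NOD range. The fold was 0.721 (log2 difference -0.47, SE 0.19, adjusted p = 0.505 in limma, unadjusted exact permutation p = 0.0606). Dlgap5, which stabilises fibres of the spindle, had 5.08, 6.27 and 6.67 in NOD and 4.43, 5.71 and 5.93 in NOD.Drak2-/- (lowest, median, highest). It differed by -0.68 (SE 0.29, adjusted p = 0.508 in limma, unadjusted exact permutation p = 0.0823), with overlapping groups around the brightest background row.

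Kif11, the kinesin that pushes spindle poles apart, differed by -0.50, Kif15 by -0.23 and Kif22, which moves chromosome arms, by -0.18. Without NOD.Drak2-/- replicate 1 Kif15 differed by -0.052 and Kif22 by -0.020. The chromokinesin gene Kif4 differed by -0.46 and Kif2c, a microtubule depolymerase, by -0.35, both with means in the background range. Tpx2, the activator of Aurora A, was the positive one at 0.12. Hmmr (-0.04) and Spag5 (-0.18) were in the background range.

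Of 6 cytokinesis genes 5 were negative, and 0 passed. Prc1, which bundles the central spindle, differed by -0.50 (adjusted p = 0.676 in limma) and was at 8.09 in NOD replicate 1 and 8.10 in NOD.Drak2-/- replicate 4, while the other 10 arrays lay between 5.61 and 7.48. Kif23 and Racgap1, the 2 parts of centralspindlin, differed by -0.26 and -0.11, and Kif23 by -0.052 without NOD.Drak2-/- replicate 2. Ect2, the exchange factor that activates RhoA at the cleavage furrow, differed by -0.73 (SE 0.33, adjusted p = 0.519 in limma, unadjusted exact permutation p = 0.102). Its lowest, median and highest values were 3.52, 3.89 and 5.16 in NOD and 2.64, 3.57 and 4.25 in NOD.Drak2-/-, all below the brightest background row. Kif20a, a kinesin of the midzone, differed by 0.14 and Anln, an actin-binding protein of the furrow, by -0.13, both in the background range.

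Further cell cycle genes, from lists that hold no member, were also mostly lower in NOD.Drak2-/- where they serve mitosis or replication, without passing the test. These lists too were chosen with earlier results known and measured on the same arrays, so their counts are not separate support. How far they depend on single arrays was not tested. Of 74 other measured genes of mitosis 55 were negative (74.3%) with a median of -0.16, 0 passed, and 8 (10.8%) had an unadjusted p under 0.05, all negative. Over all genes 54.1% were negative, and 9.43% had such a p, 5.69% with a negative difference. Shcbp1, a cytokinesis protein, differed by -0.70 (adjusted p = 0.469 in limma), and Espl1, the separase that cuts cohesin, by -0.46 (adjusted p = 0.483 in limma). Of 41 DNA replication genes 34 were negative (82.9%) with a median of -0.21, 0 passed and 5 (12.2%) had an unadjusted p under 0.05, all negative, beside the same shares over all genes. Prim2, a subunit of primase, differed by -0.58 (adjusted p = 0.483 in limma), and the chromatin assembly gene Chaf1b by -0.67 (adjusted p = 0.485 in limma). Replication genes had per-array means of 6.80 in NOD replicate 2 and 6.74 in NOD.Drak2-/- replicate 1, below the other 10 arrays at 6.89 to 7.51.

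Subunits and partners of the anaphase-promoting complex, which resting cells also express, had differences of both signs. Of 17 genes 8 were negative, the median was 0.02, and Ube2s (0.37) and Anapc7 (0.27) had the smallest p-values (adjusted p = 0.535 and 0.601 in limma). Regulators of the E2F, RB and DREAM families had 13 of 26 negative and a median of 0.00, with Lin37, a MuvB subunit, at 0.50 (adjusted p = 0.469 in limma) and E2f7 at -0.24 (adjusted p = 0.595 in limma). Cell cycle inhibitors had 6 of 12 negative and a median of -0.01, with the antiproliferative gene Btg2 at 0.36 (adjusted p = 0.47 in limma) and Cdkn1b, which encodes p27, at 0.22 (adjusted p = 0.566 in limma). In each of these 3 lists 0 genes passed.

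**Figure D5:**
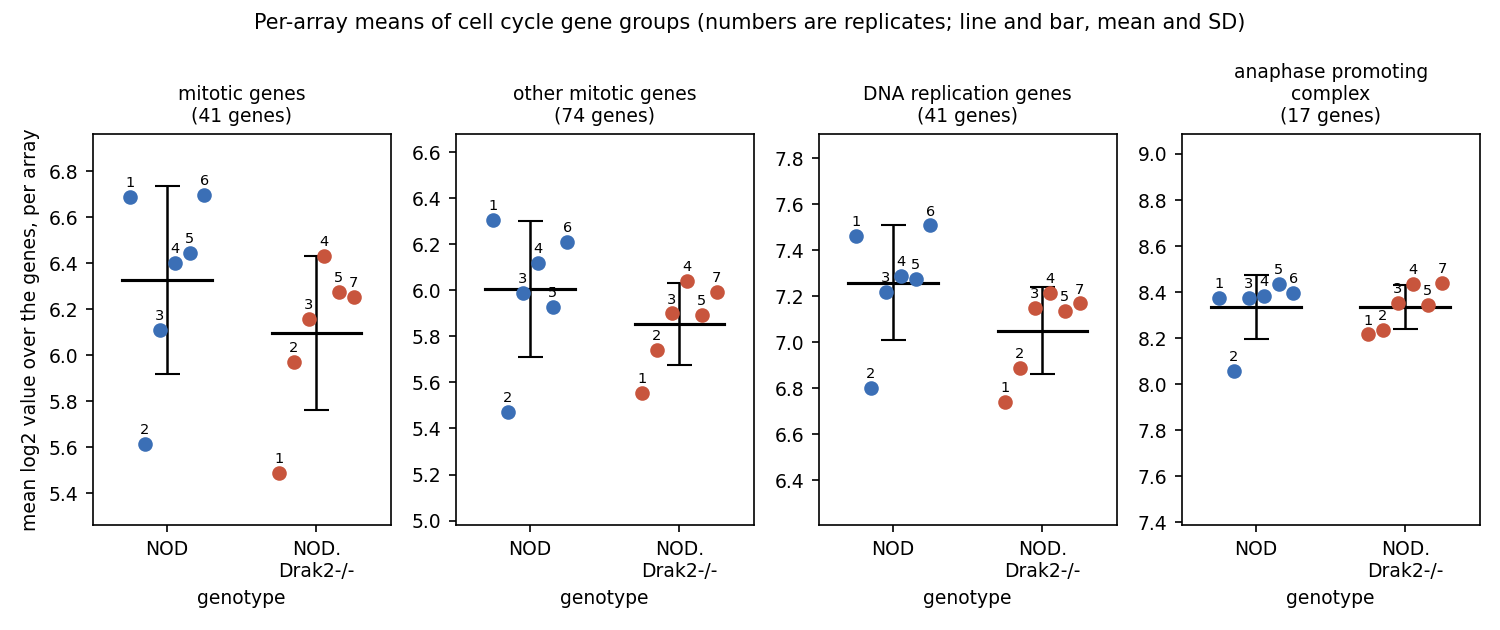
Mean log2 value per array of the 41 mitotic genes, 74 other mitotic genes, 41 DNA replication genes and 17 genes of the anaphase-promoting complex, with a point per array labelled by its replicate number, and line and bar for mean and SD; each panel spans the same number of log2 units. NOD replicate 2 and NOD.Drak2-/- replicate 1 are the lowest arrays in all 4 panels, and the genotypes overlap in all 4.

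Outside the list, the genes that varied most like the mitotic mean were taken by Pearson r over the 12 arrays with genotype means subtracted, among genes above background. The first 15 had r between 0.85 and 0.94. Of these, 7 are on the other lists: the repressor E2f8 (0.91), the condensin genes Smc2 (0.88) and Ncapd2 (0.85), the mitotic kinase Pbk (0.88), and the replication genes Cdc6 (0.86), Rpa2 (0.85) and Pole (0.85). The histone chaperone Asf1b (0.91), the PCNA-associated factor Pclaf (0.92), Prr11 (0.94) and the importin Kpna2 (0.88) were among them too. The closest, Atp10a, a lipid flippase gene, had r = 0.94, and 0.84 without the 2 low arrays. Atp10a was at 7.39 in NOD replicate 2 and 7.71 in NOD.Drak2-/- replicate 1, below the other 10 arrays at 7.79 to 8.40. Prmt3, Cs and 1500009L16Rik complete the 15. As they were chosen for their size, these correlations are descriptions, and 0 of the 15 differed between genotypes in limma, with adjusted p-values from 0.615 to 0.956.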

How the data were processed

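Expression was measured on 12 arrays of 1 colour, 6 per genotype. The log2 values are those of the authors' deposited table, with RMA and oligo listed as tools per the submitters' processing notes, and their versions not given in the sources used here. RMA ties arrays to a common distribution, so a shift shared by all genes would be removed. Arrays give no read counts, so precision depends on how many arrays there are.

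Of 29129 rows, 19572 had 1 gene symbol in the platform annotation. The brightest row per gene gave 19505 genes. Control rows entered no test. The genotype difference came from the lmFit and eBayes functions of limma (version 3.58.1, R version 4.3.3) without covariates, tested on simulated data. Single genes were also compared by a two-sided exact permutation test over 924 regroupings, with 0.00216 the smallest possible p, unadjusted. No scan or extraction batch is known from the labels.

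The members and lists were chosen with earlier results of these data known. Values by array, or the lowest, median and highest per genotype, are given for the 6 members of smallest p, the 4 of highest signal (Stmn1, Mki67, Cenpa and Mad2l1), Mki67, Top2a and Cdk1. Lists of cell cycle genes name their 2 genes of smallest p. In the marker and heat shock lists this rule was not followed throughout, and other genes were named after their values were seen. Printed promoters are those of up to 6 members with both motifs and the largest difference, the restriction to 250 bases before the start being added later. Same-numbered arrays of the 2 genotypes are not described as paired. Alternatives covered scaling, dim genes, rows per gene, the replicate block, the spread, array weights, other-cell covariates and each array left out.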

Additional observations from a re-analysis of the deposited data

Results flagged for a closer look

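In 84 groups of 6 values (41 genes and their mean, in each genotype), 4 values stood far from the other 5 of their genotype, where a rate of 1 in 20 gives 4.2. Incenp was at 5.61 in NOD.Drak2-/- replicate 1, with the other 5 arrays between 5.97 and 6.15. Hmmr was at 4.61 in the same array, with the others between 5.47 and 5.91, in the background range. Bub1 was at 3.68 in NOD replicate 2, with the others between 5.10 and 5.87. Mad2l1 was at 6.94 in that array, with the others between 8.15 and 8.88. These 4 values are low values of the 2 arrays with the lowest mitotic means.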

How the results depend on the processing

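In each of 21 further fits 0 mitotic genes passed, with adjusted p-values no lower than 0.30 in limma, and 24 of 41 kept their sign in all of them. Over all genes 4 passed, and 0 with the replicate block, 1 with the B cell covariate, 2 with the myeloid covariate and 1 to 2 leaving out 1 array. Testing only genes above background left 26 members, 23 of them negative (88.5%), beside 44.6% of the 8128 genes in that fit. With the replicate block 30 members were negative (73.2%), beside 54.7% of all genes. In that fit the median was -0.16, 0 passed, and Cdk1 moved from -0.32 to -0.047. Deviations of same-numbered arrays correlated between -0.18 and 0.09 across genes, which cannot settle whether the numbers pair the mice. Averaging all rows of a gene could change no member's difference, as every member had 1 row. The fits that altered only the estimate of spread or left out dim genes also kept those differences, so none of these could change a sign. Leaving out 1 array, the median ran from -0.35 to -0.09. The count below 0 ran from 24 to 39 of 41, beside 53.7% and 52.3% of all genes in those 2 fits.

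Some signs changed. Under median centring Cdc20 was at 0.051, Cenpf 0.014, Hmmr 0.025, Mad2l1 0.044, Ncapg 0.0077 and Ube2c 0.039. With the replicate block Cdc20 was at 0.13, Plk1 0.16, Racgap1 0.10, Spag5 0.049 and Ube2c 0.21. Array weights gave Bub1 -0.084, Hmmr 0.029 and Kif20a -0.035. The myeloid covariate gave Cdc20 0.019, Mad2l1 0.031 and Ncapg 0.029. Without both low arrays, a setting chosen after the data were seen, Bub1 was at -0.20, Cenpf 0.029 and Hmmr 0.15. Leaving out 1 array, ranges that cross 0 were -0.48 to 0.032 for Aurkb, -0.16 to 0.31 for Bub1, -0.23 to 0.012 for Ccnb2, -0.20 to 0.11 for Cdc20, -0.017 to 0.36 for Cdca3, -0.18 to 0.041 for Cenpf, -0.18 to 0.13 for Hmmr, -0.063 to 0.31 for Kif20a, -0.66 to 0.022 for Kif2c, -0.29 to 0.12 for Mad2l1, -0.33 to 0.048 for Mki67, -0.37 to 0.17 for Ncapg, -0.21 to 0.12 for Plk1, -0.35 to 0.052 for Racgap1, -0.32 to 0.011 for Spag5, -0.030 to 0.26 for Tpx2 and -0.24 to 0.14 for Ube2c. The cause was not tested. Signal limits the 15 members with means in the background range.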
